A study of Mus musculus with 32 samples.

Results

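Transcripts of the Mcm helicase family were measured in individual mouse embryos of the late 2-cell stage, 28 h after fertilization in vitro. The family was taken as the 10 genes of the deposited table with the symbols Mcm2 to Mcm10 and Mcmbp, out of 34223 genes in all, and each was present. In 16 wild-type embryos, called Val_LNA, an oligonucleotide containing locked nucleic acid (LNA, a modified nucleotide that tightens base pairing) had been injected, antisense to tRFValCAC, which is a valine tRNA fragment. In the other 16 wild-type embryos, called Ctrl_LNA, the LNA oligonucleotide was a scrambled sequence. All 32 embryos also received mRNA for a green fluorescent (GFP) version of histone H3.3, and GFP-positive embryos were used. The comparison asks what differs when this fragment, which the series title places in sperm, is inhibited. Nothing in the labels says which embryos shared parents, a fertilization or an injection day, so the p-values cover only embryo-to-embryo spread, which may be partly technical. Each library is 1 whole embryo, and fewer transcripts in 1 of its cells cannot be told apart from fewer in both.

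Mcm2 to Mcm7 encode the 6 subunits of a ring that is loaded around DNA at replication origins before S phase. With Cdc45 and the GINS complex the ring becomes the helicase that opens the double helix ahead of the polymerases. Each subunit is needed for a working ring. Mcm8 and Mcm9 form a separate helicase of recombination repair, Mcm10 helps to activate the loaded ring and to start synthesis, and Mcmbp is a binding partner of Mcm subunits known from human cells to assist ring assembly. The egg stores Mcm products for the first cleavages, and zygotic transcription starts up before the late 2-cell stage is over.

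Reads recovered from the deposited values numbered 2592925 to 6259870 per embryo in Val_LNA and 3759692 to 6128941 in Ctrl_LNA. Genes with a value above 0 numbered 16687 to 19996 in Val_LNA embryos and 16910 to 20200 in 15 Ctrl_LNA embryos. The remaining embryo, Ctrl_LNA 48, had 7276 such genes and stood apart in most of the family, so fold changes are also given without it. Markers of the late 2-cell embryo, such as Zscan4c, were above 0 at the median for 7 of 7 listed genes in the table, and their summed normalised counts were 4120 to 18574 in Val_LNA embryos (median 6829) and 2035 to 22926 in Ctrl_LNA embryos (median 4773). Of 4 sperm markers, 3 were at a median of 0 in both groups. Summed oocyte markers spanned 4967 to 32032 in Val_LNA (median 12481) and 1537 to 20452 in Ctrl_LNA embryos (median 8136). The log2 fold change was positive for 7 of 7 late 2-cell markers (median 0.84) and 6 of 6 oocyte markers (median 0.89), beside a median of 0.26 for all tested genes. Without Ctrl_LNA 48 these medians were 0.64 and 0.39, beside 0.07. Of 6 markers of the cumulus cells around the egg, 4 were at a median of 0 in both groups. The sum came mostly from Amhr2, at 545 ± 284 in Val_LNA, against 519 ± 200 in Ctrl_LNA (SD, n = 16 each). The other marker with a median above 0, Tnfaip6, averaged 20.0 ± 14.2 in Val_LNA, against 5.55 ± 8.83 in Ctrl_LNA. Its medians were 23.2 and 1.98. Trophectoderm markers summed to 12.4 to 294 in Val_LNA and 0 to 372 in Ctrl_LNA embryos. Only 2 of 6 cumulus, 1 of 4 sperm and 3 of 4 trophectoderm markers had values high enough to be tested. No tested marker was called in limma, and the part of these markers in the results was not tested. The library numbers in the labels form a lower run (1 to 8 in Val_LNA, 31 to 38 in Ctrl_LNA) and an upper run (13 to 20 and 43 to 50), which the labels do not call batches.

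Mcm6 was the member that fell. Values are normalised read counts, the reads of a gene divided by the size factor of its embryo. Mcm6 ranged over 13.7 to 815 in Val_LNA embryos with a median of 109, against 661 to 2136 in Ctrl_LNA embryos with a median of 1358. The groups met at a single point: Val_LNA 6, at 815, lay above Ctrl_LNA 36, at 661. The other 15 Val_LNA embryos were below every control, the highest of them being Val_LNA 7 at 605 and Val_LNA 17 at 386. The share of all tested genes with as little overlap was not counted. The lowest, Val_LNA 14, rested on 11 reads. Ctrl_LNA 48 had 1486 and lay among the other controls for this gene.

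The group means of Mcm6 were 216 ± 228 in Val_LNA, against 1397 ± 351 in Ctrl_LNA (SD, n = 16 each). By means the level was 6.45-fold lower in Val_LNA, and by medians 12.5-fold lower. On the scale of log2(normalised count + 1) the difference was -3.38 ± 0.40 (SE), with a 95% confidence interval of -4.19 to -2.58 and an adjusted p of 1.53e-06 in limma. Its p ranked 3 among the 15559 genes tested. The spread was also unlike: the SD was 105% of the mean in Val_LNA and 25.1% in Ctrl_LNA embryos. EdgeR's quasi-likelihood test on the recovered reads gave -2.69 with an adjusted p of 0.000183, a smaller fold change that follows the group means. Without Ctrl_LNA 48 the limma difference in Mcm6 was again -3.38 (adjusted p = 1.14e-06).

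The difference in Mcm6 was present in both runs of library numbers, which have no embryo in common. It was -3.36 ± 0.57 in the lower run (SE, adjusted p = 0.00463 in limma) and -3.41 ± 0.54 in the upper run (adjusted p = 0.00722). The change between runs was -0.05 ± 0.82 (SE, adjusted p = 0.993), an interval too wide to exclude a 2-fold difference between them. Limma called 0.533% of all tested genes lower in the lower run and 0.212% in the upper run.

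Mcm6 (ENSMUSG00000026355.11) is a protein-coding gene on the minus strand of chromosome 1, from 128331590 to 128359664 on GRCm38. Of the other members, also protein-coding, Mcm3 lies on the same chromosome (20802968 to 20820312), Mcm2 on chromosome 6 (88883474 to 88898780), Mcm4 on chromosome 16 (15623897 to 15637400), Mcm5 on chromosome 8 (75109569 to 75128439) and Mcm7 on chromosome 5 (138164583 to 138172422). Mcm8 (132816141 to 132844197) and Mcm10 (4989714 to 5012791) lie on chromosome 2, Mcm9 on chromosome 10 (53536315 to 53630439) and Mcmbp on chromosome 7 (128696441 to 128740495). E2F factors, which drive S phase genes, are known activators of Mcm genes in cycling cells, so the promoters were searched for E2F-type letters. The letters TTTCCCGC, TTTCGCGC, TTTGCCGC and TTTGGCGC were sought on both strands of RefSeq promoter windows (GRCm38.p6), which hold 300 bases, 250 before and 50 after a gene's start. That start is the one of the window and can differ from the gene ends given above, which are from GENCODE, as it does for Mcm6. The windows of Mcm7 and Mcm9 lie within the gene positions given above. Distances below are from the start of the window's annotation. A match was found in 6 of the 10 windows of the members, beside 2.26% of all 32851 windows. By gene it was in 6 of the 9 members with a window, beside 2.6% of 27025 genes. The 250 bases before the start are shown for Mcm6, the member that fell, for Mcm5, a ring subunit that did not pass the test, and for Mcm10, an accessory factor with no match, 5′ to 3′ on the gene's strand with matches in capitals.
Mcm6, chr1:128359706-128359955, minus strand: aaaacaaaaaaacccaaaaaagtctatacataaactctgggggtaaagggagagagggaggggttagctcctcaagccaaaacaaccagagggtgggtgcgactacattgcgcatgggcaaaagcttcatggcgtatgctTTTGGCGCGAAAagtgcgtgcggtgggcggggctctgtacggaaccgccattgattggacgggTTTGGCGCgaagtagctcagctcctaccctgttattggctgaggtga
Mcm5, chr8:75109259-75109508, plus strand: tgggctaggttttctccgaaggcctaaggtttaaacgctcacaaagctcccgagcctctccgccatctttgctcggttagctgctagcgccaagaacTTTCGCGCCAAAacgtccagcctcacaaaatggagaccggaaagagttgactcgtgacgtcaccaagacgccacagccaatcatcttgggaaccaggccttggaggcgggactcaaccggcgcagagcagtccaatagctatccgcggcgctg
Mcm10, chr2:5012792-5013041, minus strand: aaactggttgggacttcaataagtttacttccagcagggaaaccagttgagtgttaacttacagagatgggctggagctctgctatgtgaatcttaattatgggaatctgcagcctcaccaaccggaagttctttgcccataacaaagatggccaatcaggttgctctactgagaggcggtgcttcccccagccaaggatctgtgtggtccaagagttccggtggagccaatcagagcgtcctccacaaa

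The Mcm6 stretch holds 3 matches. One on the gene's strand and one on the other overlap in a single run of capitals that begins 110 bases before the start, and the third begins 47 bases before it. Mcm5 holds the same overlapping letters read from the opposite strand, beginning 153 bases before its start. Mcm3, Mcm7, Mcm8 and Mcmbp each held at least 1 match, Mcm2, Mcm9 and Mcm10 held none, and Mcm4 had no window in the table. The letters CCAAT were in 9 of the 10 windows, beside 37.4% of all windows, and in 8 of the 9 genes, beside 41.1% of all genes. The E2F-type letters were thus held by Mcm6 and by 5 members that did not pass the test, and a match describes the sequence only.

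**Figure D1:**
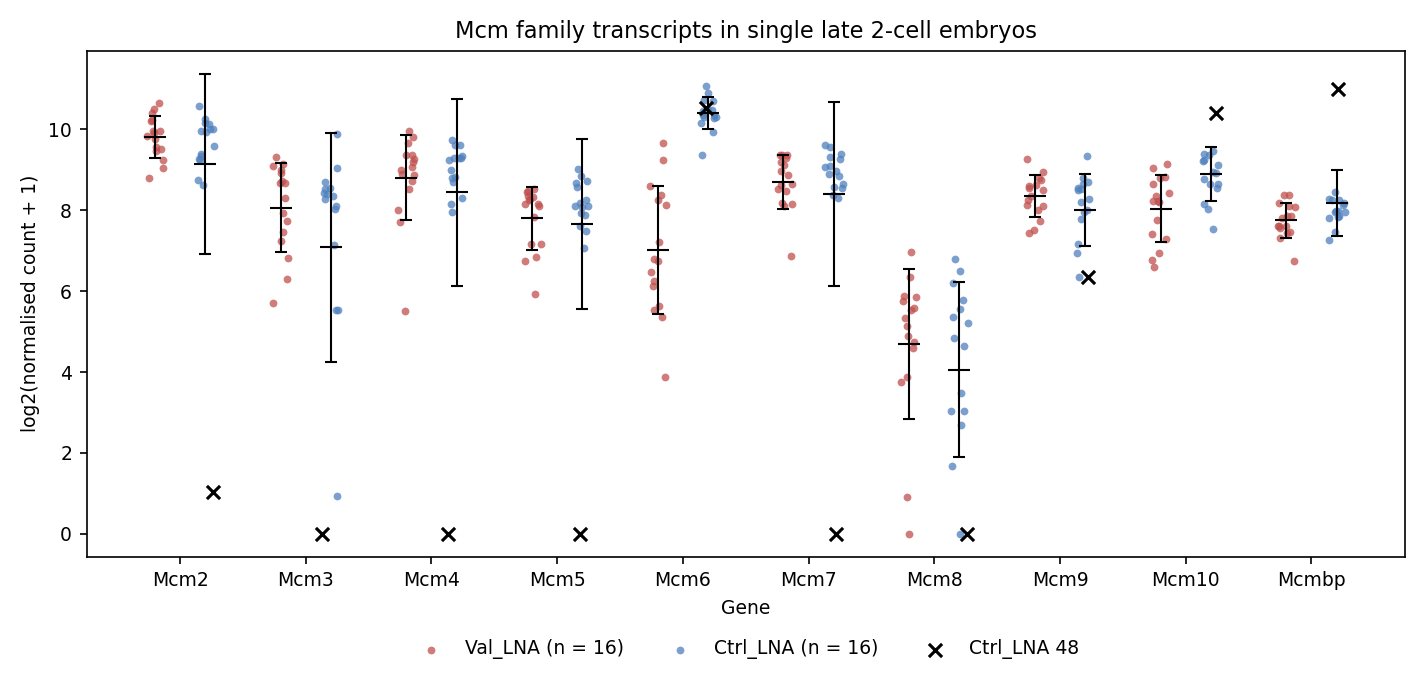
Level of each Mcm family transcript, as log2(normalised count + 1), in every embryo, with Val_LNA left of Ctrl_LNA. Bars are the mean and SD of 16 embryos, and crosses mark Ctrl_LNA 48. For Mcm6, 15 of 16 Val_LNA embryos lie below all Ctrl_LNA embryos. The groups overlap more in the other members, with 5 of 16 Val_LNA embryos below all Ctrl_LNA embryos for Mcm10.

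The 5 other subunits of the ring did not pass the test. Mcm2, a subunit that also binds histones, ranged over 448 to 1620 normalised counts in Val_LNA with a median of 935, against 397 to 1533 in the Ctrl_LNA embryos without 48 with a median of 978. Its log2 fold change was 0.67 ± 0.54 (SE, adjusted p = 0.557 in limma). Ctrl_LNA 48 held 1.05 normalised counts of Mcm2, which set it far below every other embryo. Without that embryo the difference was 0.13, with a 95% confidence interval of -0.27 to 0.53.

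Mcm4, a subunit of the ring's helicase core with Mcm6 and Mcm7, averaged 532 ± 249 normalised counts in Val_LNA, against 514 ± 226 in Ctrl_LNA (SD, n = 16 each). Mcm7 averaged 449 ± 165 in Val_LNA and 486 ± 193 in Ctrl_LNA. These partners of Mcm6 therefore overlapped between the groups where Mcm6 hardly did. The log2 fold change was 0.36 for Mcm4 (adjusted p = 0.792 in limma) and 0.29 for Mcm7 (adjusted p = 0.824). Both signs turned without Ctrl_LNA 48, to -0.20 for Mcm4 (95% confidence interval -0.80 to 0.40) and -0.27 for Mcm7 (-0.69 to 0.15), and also when the embryos were centred on their median gene.

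Mcm5, which sits with Mcm2 at the gate of the ring, ranged over 60.3 to 369 normalised counts in Val_LNA with a median of 284, against 134 to 520 in Ctrl_LNA without 48 with a median of 276. Its log2 fold change was 0.13 (adjusted p = 0.922 in limma) and turned to -0.38 without Ctrl_LNA 48 (95% confidence interval -0.87 to 0.12), and likewise turned with median centring. In the lower run it was -0.94 and in the upper run 1.21, a change between runs of 2.15 (unadjusted p = 0.0475, adjusted p = 0.817 in limma) that was 1.15 without Ctrl_LNA 48.

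Mcm3 was the most uneven of the 5. It ranged over 51.0 to 639 normalised counts in Val_LNA embryos with a median of 360, against 0.9 to 953 in Ctrl_LNA embryos without 48 with a median of 325. The lowest of those controls, Ctrl_LNA 32, had a near absence of Mcm3 while holding the highest control level of Mcm4, at 849. The log2 fold change of Mcm3 was 0.98 ± 0.72 (SE, adjusted p = 0.518 in limma), and 0.50 without Ctrl_LNA 48 with a 95% confidence interval of -0.66 to 1.67. That interval holds a 2-fold rise in Mcm3, so a rise of that size was not excluded, while a 2-fold fall lies outside it.

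Across the family 0 members were called higher and 1 lower in limma, against 0.881% higher and 1.31% lower of all tested genes. At an unadjusted p under 0.05 limma had 0 members higher and 2 lower, Mcm6 and Mcm10, beside 8.88% and 5.85% of all tested genes. EdgeR called 0 members higher and 1 lower, Mcm6, beside 0.186% and 1.05% of all genes. At an unadjusted p under 0.05 edgeR had 0 higher and 3 lower, with Mcmbp the added one (unadjusted p = 0.012), beside 3.77% and 7.12%. The log2 fold change of Mcmbp was -0.79 in edgeR but -0.20 in DESeq2 (unadjusted p = 0.193). Ctrl_LNA 48 held 2061 normalised counts of Mcmbp, against at most 352 in the other controls. DESeq2 called 0 higher and 1 lower, beside 1.51% and 2.47% of the genes to which it gave an adjusted p. At an unadjusted p under 0.05 DESeq2 had 0 higher and 2 lower, beside 7.83% and 6.59%. Without Ctrl_LNA 48 limma again called Mcm6 alone, beside 1.57% of all genes higher and 2.63% lower. For the 10 members the log2 fold change had a median of 0.32, beside 0.26 for all tested genes, and of -0.22 without Ctrl_LNA 48, beside 0.07. With embryos centred on their median gene it was -0.13, beside -0.19, and limma then called 61 of all genes higher and 300 lower in place of 137 and 204.

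**Figure D2:**
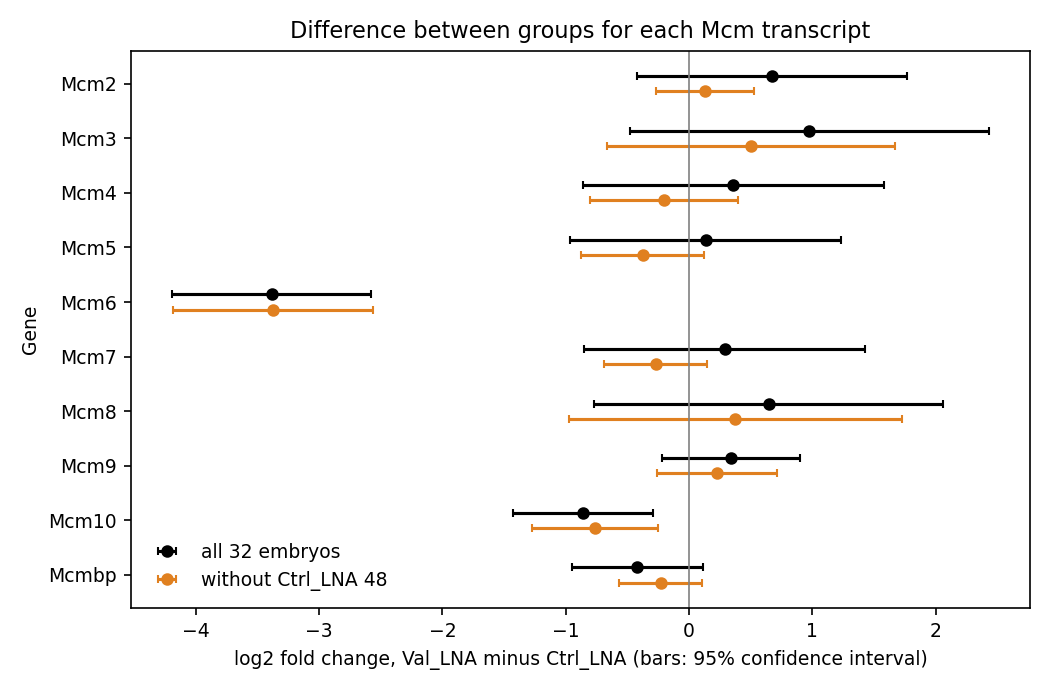
Log2 fold change of each member, Val_LNA minus Ctrl_LNA, in limma, with 95% confidence intervals, from all 32 embryos and without Ctrl_LNA 48. Mcm6 lies at -3.38 in both fits, the interval of Mcm10 lies below 0 in both, and those of the other members include 0.

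The make-up of the ring transcripts differed in the share of Mcm6. For each embryo the level per kb (the normalised count divided by the length of the longest coding transcript) was summed over Mcm2 to Mcm7. Mcm6 took 0.635% to 18.1% of that sum in Val_LNA embryos with a median of 3.43%, against 15.9% to 40.3% in Ctrl_LNA embryos without 48 with a median of 28.1%. In Ctrl_LNA 48 the share was 99.9%, because 4 of the other subunits were at 0 there. Mcm6 ranked last of the 6 subunits in 12 of 16 Val_LNA embryos and first in none. In Ctrl_LNA its rank was 1 in 8 of 16 embryos, 2 in 6 and 3 in 2.

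The other 5 subunits together differed by less than their SD. Their summed level per kb was 766 ± 159 in Val_LNA (SD, n = 16), against 783 ± 132 in Ctrl_LNA without 48 (SD, n = 15) and 734 ± 234 with it. The lowest Val_LNA embryo was number 14, at 493, which was also the embryo with the lowest Mcm6. The lowest control other than Ctrl_LNA 48 was Ctrl_LNA 33, at 579.

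**Figure D3:**
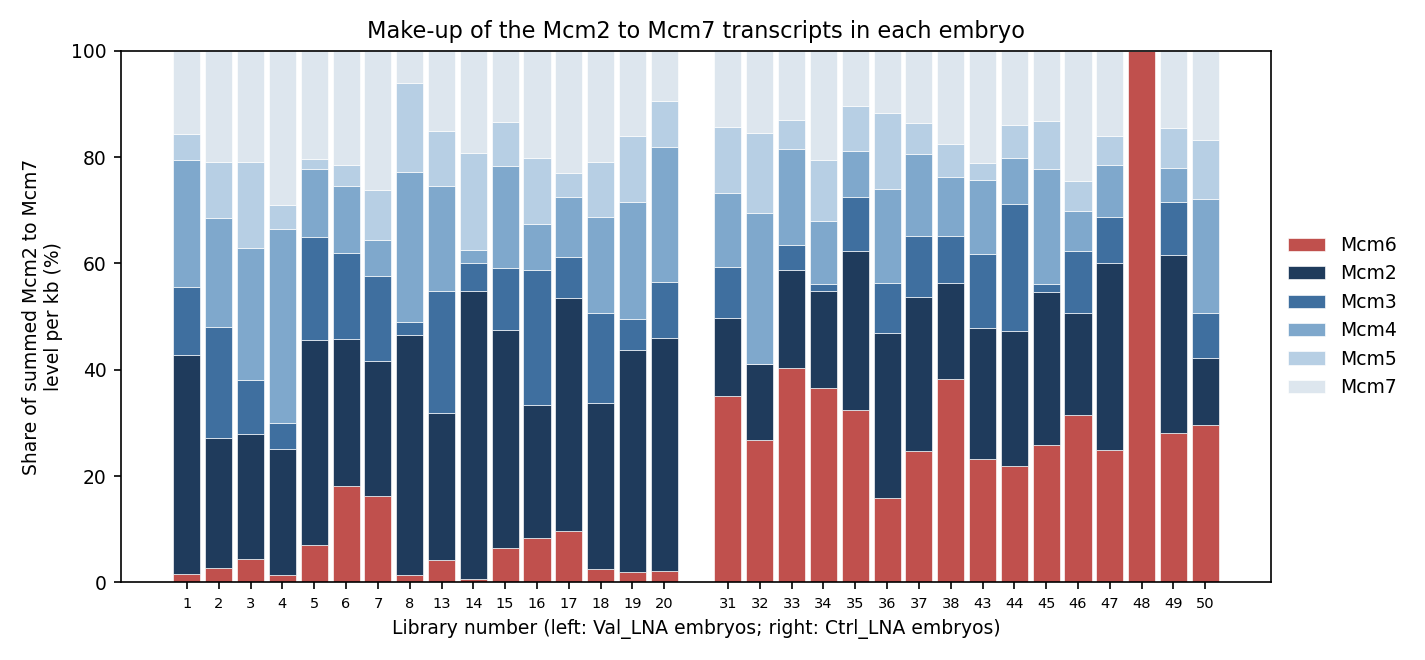
Share of each subunit (%) in the summed level per kb of Mcm2 to Mcm7 in each embryo, Val_LNA on the left and Ctrl_LNA on the right, by library number. The Mcm6 share is at most 18.1% in Val_LNA embryos and at least 15.9% in Ctrl_LNA embryos, and Ctrl_LNA 48 stands out at 99.9%.

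Mcm10, the activation factor, came nearest to the threshold after Mcm6. It ranged over 95.7 to 563 normalised counts in Val_LNA embryos with a median of 297, against 185 to 1348 in Ctrl_LNA embryos with a median of 488. The groups overlapped, with 14 of 16 Val_LNA embryos below the control median. The highest control was Ctrl_LNA 48, and without it the highest was 704. The means were 301 ± 149 in Val_LNA (SD, n = 16), against 474 ± 159 in Ctrl_LNA without 48 (SD, n = 15) and 529 ± 267 with it. The log2 fold change of -0.86 ± 0.28 (SE) had an unadjusted p of 0.00394 and an adjusted p of 0.109 in limma, so it did not pass. It was -0.76 without Ctrl_LNA 48 (adjusted p = 0.0846), and -0.81 in DESeq2 (adjusted p = 0.0504). With array weights, a limma option that gives less weight to embryos unlike the rest, Mcm10 was called at -0.85 (adjusted p = 0.0274), where 564 of the 15559 genes were called lower. It was -0.86 in the lower run and -0.87 in the upper run, with an adjusted p of 0.335 and 0.502 in limma.

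Mcmbp, the binding partner of the subunits, ranged over 107 to 333 normalised counts in Val_LNA with a median of 208, against 154 to 352 in Ctrl_LNA without 48 with a median of 252. In Ctrl_LNA 48 it was 2061, the highest value of any embryo. The log2 fold change of Mcmbp was -0.42 ± 0.26 (SE, adjusted p = 0.447 in limma) and -0.23 without that embryo, with a 95% confidence interval of -0.56 to 0.10. The 15 remaining controls varied little, with an SD of 20.3% of the mean.

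Mcm8 and Mcm9, the pair of the repair helicase, did not pass the test. Mcm8 had the lowest level per kb of the family in both groups, and averaged 40.3 ± 31.7 normalised counts in Val_LNA, against 33.3 ± 33.7 in Ctrl_LNA (SD, n = 16 each). It was at 0 in 1 Val_LNA and 2 Ctrl_LNA embryos. Its log2 fold change of 0.65 ± 0.70 (SE, adjusted p = 0.666 in limma) was 0.38 without Ctrl_LNA 48. It was -0.63 in the lower run and 1.92 in the upper run, and the change between runs was not called (adjusted p = 0.817). Mcm9 averaged 344 ± 120 in Val_LNA and 298 ± 152 in Ctrl_LNA, a log2 fold change of 0.34 ± 0.28 (adjusted p = 0.561) that was 0.23 without Ctrl_LNA 48 and turned to -0.11 with median centring. Exons of Mcm9 share 1748 bases with Asf1a on the opposite strand, and those of Mcm7 share 321 bases with Ap4m1 and 64 with Cops6. The library protocol does not mark the strand, so reads in these stretches cannot be assigned to one gene, and the values of Mcm9 and Mcm7 are uncertain to that extent.

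The order of the family by mean level per kb differed between the groups mainly in the place of Mcm6. In Val_LNA the order was Mcm2 (284), Mcm7 (152), Mcm4 (148), Mcm3 (109), Mcm5 (73.3), Mcm9 (70.5), Mcm10 (61.8), Mcmbp (52.6), Mcm6 (49.7) and Mcm8 (11.9). In Ctrl_LNA without 48 it was Mcm6 (319), Mcm2 (261), Mcm7 (175), Mcm4 (153), Mcm3 (104), Mcm10 (97.4), Mcm5 (90.6), Mcm9 (64.0), Mcmbp (60.6) and Mcm8 (10.4). With Ctrl_LNA 48 the order of the middle places in Ctrl_LNA was different, while Mcm6 (321) stayed highest. Between neighbours in these orders the gap exceeded both SDs for Mcm2 over Mcm7 in Val_LNA and for Mcmbp over Mcm8 in Ctrl_LNA without 48, and for no other pair.

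The members were also compared with each other across embryos, a comparison chosen after the values were seen. Over 45 pairs in each group, 90 correlations in all, 0 had an adjusted p under 0.05 by Pearson or Spearman permutation tests, and 12 had an unadjusted Pearson p under 0.05. The closest for Mcm6 in Val_LNA embryos was Mcm3, with Pearson r = 0.714 (two-sided permutation p = 0.002, adjusted p = 0.09, n = 16) and Spearman rho = 0.685 (permutation p = 0.00413, adjusted p = 0.12). It was 0.736 in the lower and 0.716 in the upper run, and 0.56 without the 2 embryos farthest from the Mcm3 median. Mcm7 followed, with r = 0.645 (permutation p = 0.00566, adjusted p = 0.17, n = 16) and rho = 0.691 (permutation p = 0.00399, adjusted p = 0.12). The r with Mcm7 was 0.605 without the 2 embryos farthest from the Mcm6 median. For Mcm7 it was 0.649 in the lower and 0.711 in the upper run. In Ctrl_LNA without 48 the r of Mcm6 was 0.243 with Mcm3 (permutation p = 0.335, adjusted p = 0.687, n = 15) and 0.468 with Mcm7 (permutation p = 0.0779, adjusted p = 0.438, n = 15). Within the lower and upper runs of Ctrl_LNA it was 0.291 and 0.505 with Mcm3, and 0.658 and 0.608 with Mcm7. The difference between the groups in these correlations was not tested.

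Genes outside the family with a pattern like that of Mcm6 were found by the Pearson correlation of log2(normalised count + 1) after the group means were subtracted, over 31 embryos without Ctrl_LNA 48. They included Crcp (r = 0.806) and Zfp775 (0.803). Within the groups the r of Crcp was 0.841 in Val_LNA and 0.575 in Ctrl_LNA, and that of Zfp775 was 0.870 in Val_LNA and -0.06 in Ctrl_LNA, so the likeness of Zfp775 came from the Val_LNA embryos. Those most like the mean of Mcm2 to Mcm7 were Grwd1 (0.888), Nxf1 (0.878) and Usp22 (0.872), with an r of at least 0.862 in both groups. These are among the highest of all tested genes in embryos of the same stage, in libraries of unequal depth, and are given as a description.

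Among 47 other genes of origin licensing and of the helicase, 1 rose, 3 fell and 43 did not pass in limma, so 2.13% of the list rose, beside 0.881% of all tested genes, and 6.38% fell, beside 1.31%. The median log2 fold change of the list was -0.07, beside 0.26 for all tested genes. The list held 7 genes of origin recognition and 4 of licensing, which mark origins and load the ring or control its loading. Of these, 0 were called in either direction in limma, and 0 in edgeR. At an unadjusted p under 0.05 in limma, 1 of the 7 was higher and 1 of the 4 lower, beside 8.88% and 5.85% of all tested genes. Orc5 of the origin recognition complex had 0.73 (adjusted p = 0.318) and the loader gene Cdc6 had -0.61 (adjusted p = 0.335). Both are named after their values were seen.

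Prim2, the large subunit of the primase that lays down RNA primers, fell among 15 fork partners and S phase cyclins. It held 0 to 38.8 normalised counts in Val_LNA embryos with a median of 9.37, against 0.9 to 358 in Ctrl_LNA without 48 with a median of 133. On the log2 scale it differed by -3.64 ± 0.79 (SE, adjusted p = 0.00628 in limma, and 0.00321 in edgeR), and by -4.06 without Ctrl_LNA 48. Ccne1, the cyclin E gene that acts at S phase entry, fell as well, with a median of 259 in Val_LNA and 750 in Ctrl_LNA, a log2 fold change of -1.28 and an adjusted p of 0.0183 in limma. Without Ctrl_LNA 48 the change in Ccne1 was -1.15.

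Vcp, the ATPase that pulls the helicase off DNA at the end of replication, fell among 8 genes of helicase unloading, with 692 ± 347 normalised counts in Val_LNA, against 1268 ± 439 in Ctrl_LNA (SD, n = 16 each). The log2 fold change of Vcp was -1.08 ± 0.30 (SE, adjusted p = 0.0432 in limma), and edgeR gave an adjusted p of 0.126. It was -1.05 without Ctrl_LNA 48. Rif1, which counters activation of the loaded ring by recruiting a phosphatase, rose among 13 genes of helicase activation. It ranged over 1414 to 2541 in Val_LNA with a median of 1817, against 288 to 2390 in Ctrl_LNA with a median of 685. The Rif1 levels of Val_LNA embryos thus lay in the upper part of a wide control range or just above it, and the log2 fold change of 1.17 (adjusted p = 0.0084 in limma) was 0.73 in edgeR (adjusted p = 0.252) and 1.23 in limma without Ctrl_LNA 48.

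Without Ctrl_LNA 48, 1 gene of the list rose in limma (2.13%, beside 1.57% of all tested genes) and 7 fell (14.9%, beside 2.63%). The share of all genes lower was itself higher than the 1.31% with all embryos. EdgeR without that embryo called 0 of the list higher and 2 lower, beside 84 and 250 of all tested genes. The genes added in limma were Cdc45, Clspn, Pole and Cul2, named after their values were seen. Cdc45, which joins the Mcm ring in the active helicase, ranged over 70.5 to 1643 normalised counts in Val_LNA with a median of 409, against 710 to 2246 in Ctrl_LNA without 48 with a median of 1730, and was at 3.15 in Ctrl_LNA 48. Its log2 fold change was -1.65 without that embryo (adjusted p = 0.00138 in limma) and -1.11 with it (adjusted p = 0.375). For the fork protein gene Clspn it was -0.88 without that embryo (adjusted p = 0.0364), for the polymerase subunit gene Pole -1.63 (adjusted p = 0.0268), and for the ubiquitin ligase subunit gene Cul2 -2.44 (adjusted p = 0.0356). EdgeR with all embryos gave an adjusted p of 0.1907 for Cdc45, 0.5799 for Clspn, 0.3673 for Pole and 0.4855 for Cul2.

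**Figure D4:**
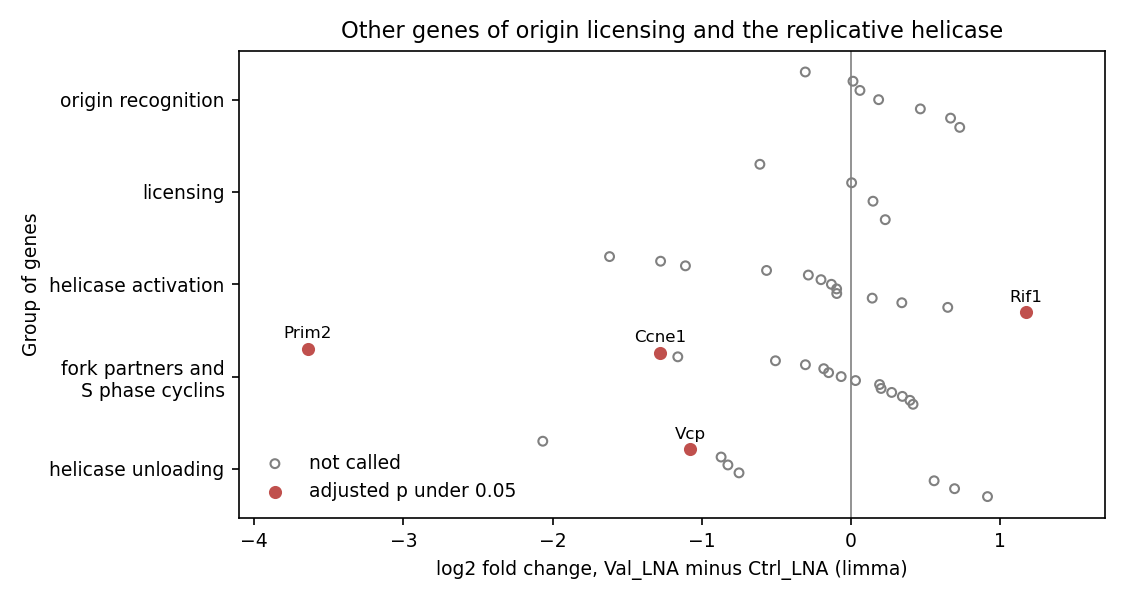
Log2 fold change, Val_LNA minus Ctrl_LNA, of 47 other genes of origin licensing and the helicase in limma, by role, with all 32 embryos. Filled points have an adjusted p under 0.05: Prim2, Ccne1 and Vcp lie below 0 and Rif1 above it.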

How the data were processed

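Polyadenylated RNA of 32 single embryos (16 Val_LNA, 16 Ctrl_LNA) was reverse transcribed with template switching, amplified by PCR and tagmented, per the labels' protocols. Molecular identifiers are not mentioned, and PCR copies are therefore counted as reads. Bowtie2, STAR, SAMtools and DESeq2 with build mm10 are named in the submitters' processing notes, without versions. The deposited values are a signal, gene counts that the authors divided by DESeq size factors, per the file headers, and the size factors are deposited beside them. The product of value and size factor was a whole number of reads, within 0.01, for 1095136 of 1095136 values (100%).

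Genes with a normalised count of at least 10 in at least 8 embryos (15559) were tested with limma 3.58.1 (trend and robust options, R 4.3.3) on log2(normalised count + 1). Calls required an adjusted p (Benjamini-Hochberg, over all tested genes) under 0.05. Fold changes on this scale understate the change of low genes. EdgeR 4.0.16 and DESeq2 1.42.0 on the recovered reads, limma-voom, other filters, pseudocounts and scalings, array weights, the runs of library numbers and leaving out each embryo were alternatives. The fits were tested on simulated data. Positions and lengths are from GENCODE M21 (GRCm38), which matched 34179 of 34223 identifiers with versions ignored. Correlations used 100000 resamples. Figures were drawn with matplotlib 3.10.9.

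The members, gene lists and tests were chosen with earlier results of these data known. The text names all members, the called genes of the replication list, and the 3 genes outside the family most like Mcm6 and most like the mean of Mcm2 to Mcm7. Genes named Gm, Rik, LOC, RP or AC were skipped in that last choice. The values of 1 gene chosen by this rule are not reported here. The text also names some cell type markers, relatives of the family by name and genes that overlap members. Other exceptions are marked as chosen after their values were seen.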

Additional observations from a re-analysis of the deposited data

How the results depend on the processing

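Mcm6 was called lower under each of 51 alternatives, with log2 fold changes between -3.56 and -3.18 when 1 embryo was left out and between -3.83 and -2.68 under the others. The count of members called lower was 1 under each alternative except array weights, which gave 2. Mcm10 was negative in all 51 and called in that 1. No paired analysis was possible because the groups share no replicate number.

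Without Ctrl_LNA 48 limma called 245 genes higher and 409 lower, in place of 137 and 204. Over the embryos left out in turn the counts were 100 to 245 higher and 176 to 409 lower. EdgeR called 29 higher, DESeq2 207 higher and 340 lower, array weights 353 and 564. No filter gave 87 higher and median-centred embryos 61. The upper run gave 2 higher and 33 lower, and the lower run 83 lower. In fits that also dropped Ctrl_LNA 48, edgeR gave 84 higher, DESeq2 346 higher and 383 lower, median centring 433 lower, and the upper run 7 higher and 124 lower. Of the replication list, 0 were called higher by edgeR, by median centring and in the upper run, and also by edgeR and in the upper run without Ctrl_LNA 48. The number lower was 6 with array weights, 0 in each run alone, 6 in DESeq2 and 7 with median centring without Ctrl_LNA 48, and 2 to 7 when 1 embryo was left out. The cause was not tested.

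The widest 95% confidence intervals of the family were those of Mcm3, -0.48 to 2.43, and Mcm8, -0.77 to 2.06, on the log2 scale. Their mean normalised counts were 313 and 36.8.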

Other observations

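Relatives of the family by name were not members and did not pass the test in limma. Mcm3ap, a gene of mRNA export named for its tie to Mcm3, had 192 ± 88.9 normalised counts in Val_LNA, against 152 ± 103 in Ctrl_LNA (SD, n = 16 each). On the log2 scale the difference was 0.78, with an adjusted p of 0.475 in limma. Mcmdc2, a gene with an Mcm-like domain known for meiotic recombination in mice, is also counted among the fork partners of the replication list. It was near the lower limit of these libraries, with medians of 1.78 in Val_LNA and 2.48 in Ctrl_LNA. In each group 5 of 16 embryos were at 0.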
